A study of Saccharomyces cerevisiae with 4 samples.

Results

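The genes described here are 56 large-subunit (60S) ribosome assembly and export factors of Saccharomyces cerevisiae. They were chosen by name as members of the pathway, but with earlier results of these data known. Counts of factors set beside all genes are therefore descriptions and not tests of the group. All were found by their systematic open reading frame (ORF) names in the deposited table of 6211 ORFs. BY4741, a haploid S288C-derived laboratory strain whose genotype is MATa, his3Δ1, leu2Δ0, LYS2, met15Δ0, ura3Δ0, was grown in YPD rich medium at 28 °C to an absorbance of 0.6. Cultures of 50 ml were then kept for 1 h with b-lapachone at 10 µg/ml, dissolved in DMSO, or with vehicle alone (1% DMSO), so treated and vehicle cultures shared strain, medium and solvent. b-Lapachone is a naphthoquinone that undergoes cycles of reduction and oxidation in cells, and the series' title calls it DNA damaging. Each of 4 two-colour arrays set total RNA of a treated culture against total RNA of a vehicle culture (1 group, n = 4 biological replicates). On replicates 1 and 3 the treated culture's RNA was labelled with Cy3, and the dyes were exchanged on replicates 2 and 4.

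Large ribosomal subunits are built in the nucleolus around the 27S precursor of the large-subunit rRNAs. Early factors fold and cut the precursor, RNA helicases remodel it, placeholder proteins hold the sites of late ribosomal proteins, GTPases and AAA ATPases drive each transition, and adaptors carry the particle through the nuclear pore. In yeast the genes for these factors belong to the ribosome biogenesis regulon, whose transcripts are known to move together with growth conditions and stress.

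After 1 h of b-lapachone the 60S assembly factors lay slightly above 0 as a group, and no single factor passed the test. Of the 56 genes, 54 had values on at least 3 arrays and were tested, 53 of them on 4 arrays. The median of their mean log2 ratios was 0.14, or 1.10-fold, against -0.01 over all 5112 genes tested. Means lay above 0 for 46 of the 54 genes (85.2%), where 46.8% of all genes tested did. Called genes numbered 0 of 54 (limma, Benjamini-Hochberg adjusted p under 0.05), where 3.03% of all genes were called, 2.07% higher and 0.959% lower. At an unadjusted p under 0.05, 15 of the 54 were higher (27.8%) and 0 were lower, against 10.2% and 8.63% of all genes. The 15 became 7 without replicate 1, 18 without replicate 2, 9 without replicate 3 and 8 without replicate 4, while the count over all genes in either direction went from 960 to 935, 1038, 553 and 733. The lowest adjusted p was 0.101, for RRP15. The 95% interval of each of the 54 means, unadjusted for the number of genes, ended below a log2 ratio of 1, the highest limit being 0.73 for NOP12 and REA1. The intervals ran as low as -0.44, for NOG1, and in 42 of the 54 the upper limit was under 0.5.

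The log base and the direction of the deposited ratios are not stated. Base 2 and treated over vehicle are assumptions, and the opposite direction would exchange above and below throughout. Were the columns instead fixed ratios of Cy5 over Cy3, the treatment effect would be the dye coefficient fitted here, whose median was 0.02 for the 60S factors and 0.01 for all genes. Of all 5112 genes tested, limma called 155 on the mean and 2 on the dye coefficient. Which direction was deposited was not tested. Each column was centred near 0, with medians from -0.02 to 0.00, so a change in total RNA per cell would not show, and fewer cells with a transcript cannot be told apart from less of it per cell. A table of ratios holds no levels, so the strain's markers could not be checked as levels. URA3, deleted in the strain, had values on 4 arrays (mean 0.14 ± 0.23, SD), as had HIS3 (mean 0.26 ± 0.30), while LEU2 and MET17 had none. The URA3 mean was about as large as the median of the 60S factors, 0.14, so a ratio of that size was also given for a deleted gene. It is the mean of a single gene with values from -0.16 to 0.35, and does not measure the error of a median over many genes.

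**Figure D1:**
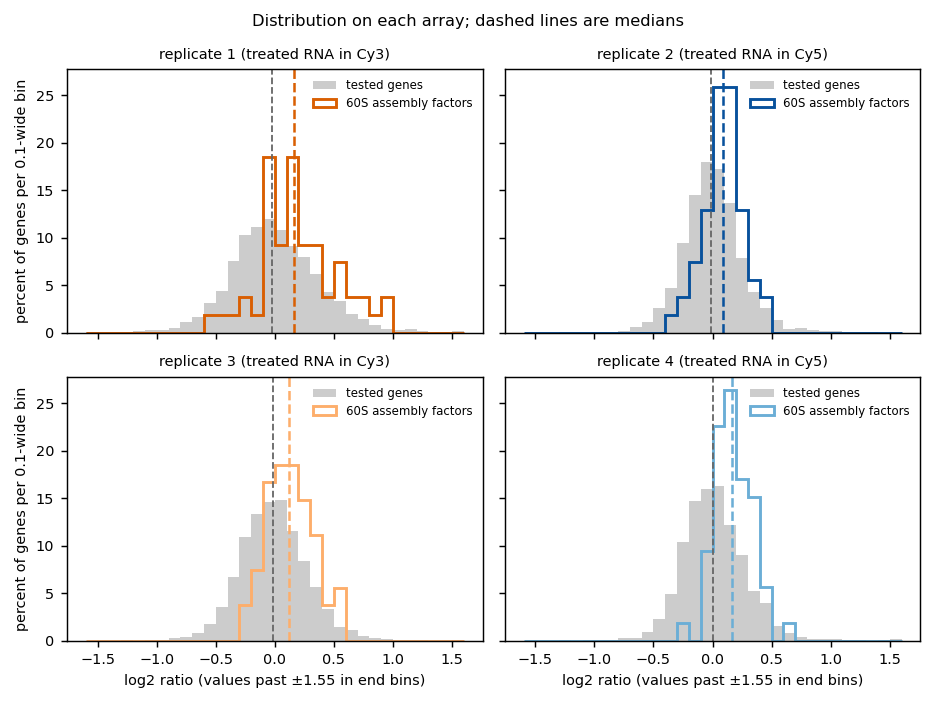
Percent of genes in 0.1-wide bins of the log2 ratio on each array, for all tested genes (grey) and the tested 60S assembly factors (coloured outline), with dashed lines at the medians. The median of the 60S factors is to the right of the median of all tested genes on each of the 4 arrays, by 0.10 on replicate 2 and by up to 0.18 on replicate 1.

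The displacement was present on each array. Over the tested 60S factors the median log2 ratio was 0.16, 0.09, 0.12 and 0.17 on replicates 1 to 4, where the median of all tested genes was -0.02, -0.01, -0.02 and 0.00. On replicate 1, 38 of 54 factors lay above 0, on replicate 2 40 of 54, on replicate 3 39 of 54 and on replicate 4 47 of 53. Values above 0 on all 4 arrays were found for 19 of the 53 factors measured on each (35.8%), against 12.8% of all genes measured on each. Values below 0 on all 4 arrays were found for 2, DBP7 and RRP1, against 13.7% of all such genes. When the arrays were averaged by dye orientation, the median was 0.15 where treated RNA carried Cy3 and 0.14 where it carried Cy5, and 35 of 54 factors had means above 0 in both orientations.

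The order of the factors among themselves repeated less well than their common position. Across the tested factors, Pearson's r between arrays of the same dye orientation was 0.51 for replicates 1 and 3 and 0.13 for replicates 2 and 4. For pairs of opposite orientation it lay between -0.17 and 0.13. Across all tested genes r was 0.49 for replicates 1 and 3, 0.40 for replicates 2 and 4, and 0.11 to 0.44 for the opposite pairs. These correlations run across genes of the same arrays, which are not independent replicates, and are given as a description. The SD of the 54 means was 0.13 and the median standard error of a single mean was 0.10, so much of the spread between factors was of the size of a single factor's error. Over all genes the SD of the means was 0.21 with a median standard error of 0.11. The spread of a 60S factor over the arrays, with a median SD of 0.17, was close to the 0.20 of all genes. Replicate 1 was the widest array for both sets. Across all tested genes its SD was 0.38, against 0.26, 0.29 and 0.27 on replicates 2 to 4. Across the 60S factors the SDs on replicates 1 to 4 were 0.33, 0.17, 0.20 and 0.16.

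**Figure D2:**
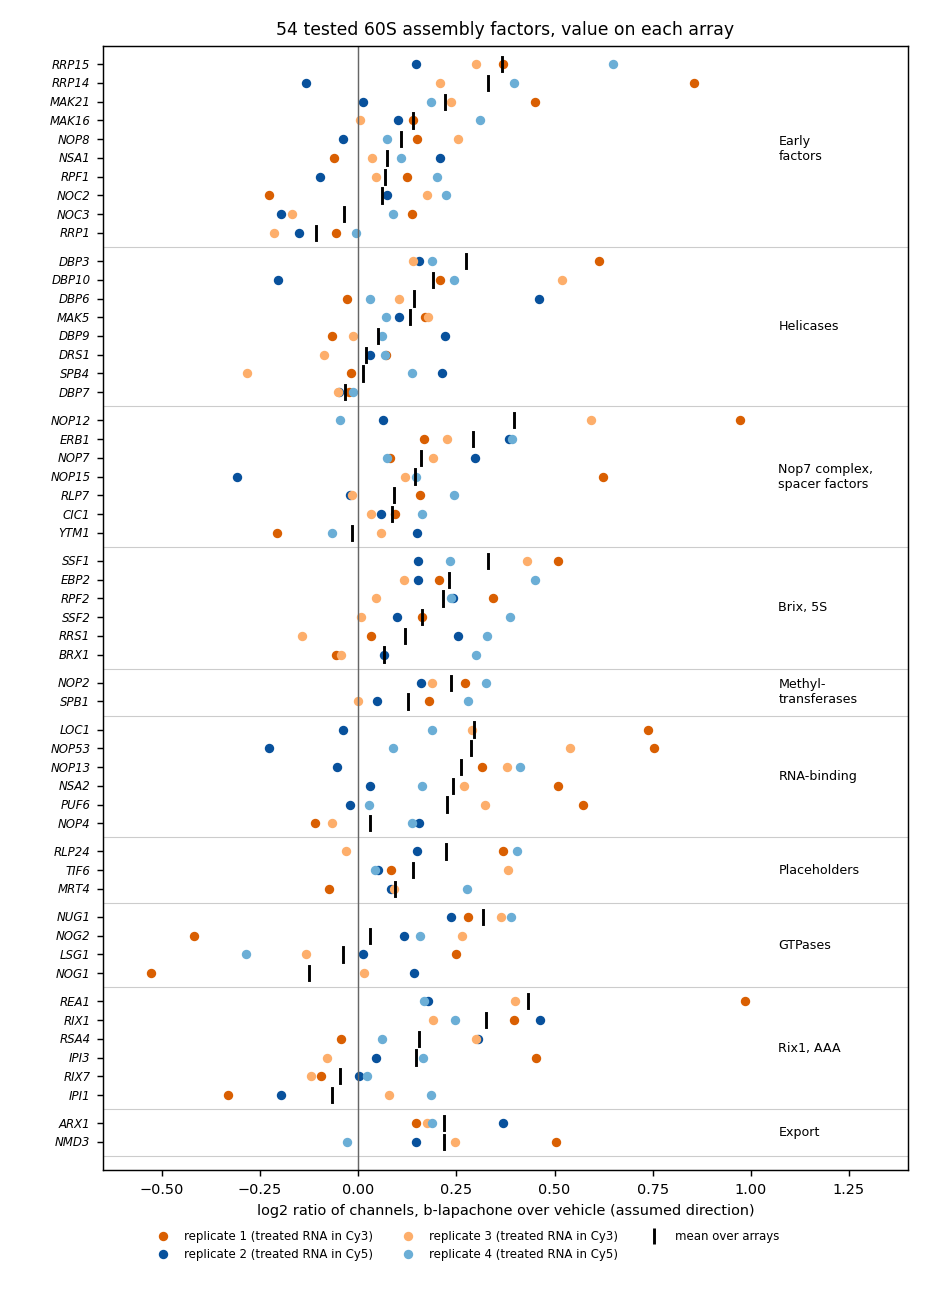
Log2 ratio of each tested 60S assembly factor on each array (points, coloured by replicate and dye orientation) and its mean (black bar), grouped by role. The bars lie above 0 for 46 of 54 factors, and the widest spreads, as for NOP12, REA1 and NOP53, have replicate 1 at the high end.

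Among factors of the earliest particles, 8 of 10 means lay above 0, with a median of 0.09. SDs below are over 4 arrays unless stated. RRP15 (YPR143W), which joins early nucleolar particles, had values of 0.37, 0.15, 0.30 and 0.65 on replicates 1 to 4, a mean of 0.37 ± 0.21 (limma, Benjamini-Hochberg adjusted p = 0.101). RRP14 (YKL082C), another nucleolar factor, was at 0.86, -0.13, 0.21 and 0.40, a mean of 0.33 ± 0.41. RRP15 was thus above 0 on each array, and RRP14 was below 0 on replicate 2. Rrp14 and Rrp15 bind the particle together with Ssf1, whose gene was also among the 5 highest of the factors, a grouping that was made after the values were seen. MAK21 (YDR060W, also NOC1), the Noc protein that pairs with Noc2 in the nucleolus, had 0.45, 0.01, 0.24 and 0.18 (mean 0.22 ± 0.18). NOC2 (YOR206W), the partner shared by Mak21 and Noc3, had -0.23, 0.07, 0.17 and 0.22 (mean 0.06 ± 0.20). NOC3 (YLR002C), which takes over from Mak21 as particles move to the nucleoplasm, had 0.14, -0.20, -0.17 and 0.09 (mean -0.03 ± 0.17). The values of the 3 Noc genes overlapped, and within arrays MAK21 exceeded NOC2 on 2 of 4 (mean difference 0.16 ± 0.35).

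The Mak16, Rpf1, Nsa1 and Rrp1 proteins form another early module. MAK16 (YAL025C) was at 0.14 ± 0.13, NSA1 (YGL111W) at 0.07 ± 0.11 and RPF1 (YHR088W), a Brix-domain protein, at 0.07 ± 0.13. RRP1 (YDR087C) had -0.06, -0.15, -0.22 and -0.01 on replicates 1 to 4. Its mean, -0.11 ± 0.09 (limma, Benjamini-Hochberg adjusted p = 0.592), was the lowest of the factors measured on 4 arrays. NOP8 (YOL144W), which acts with Dbp6 in the first particles, was at 0.11 ± 0.12. NOP16 (YER002W) had a value on 1 array, -0.26 on replicate 2, and was not tested.

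The DEAD-box helicases, ATPases that unwind or remodel RNA, were 9 genes, of which 8 were tested and 7 had means above 0, with a median of 0.09. HAS1 (YMR290C) had no value on any array. DBP3 (YGL078C), needed for efficient cutting of the first internal spacer, was at 0.61, 0.16, 0.14 and 0.19 (mean 0.27 ± 0.23), with replicate 1 far above the others. DBP10 (YDL031W) was at 0.19 ± 0.30, DBP6 (YNR038W) at 0.14 ± 0.22, MAK5 (YBR142W) at 0.13 ± 0.05, DBP9 (YLR276C) at 0.05 ± 0.12 and DRS1 (YLL008W) at 0.02 ± 0.07. SPB4 (YFL002C), which remodels a late nucleolar particle, had -0.02, 0.21, -0.28 and 0.14 (mean 0.01 ± 0.22). DBP7 (YKR024C) was at -0.02, -0.05, -0.05 and -0.01 (mean -0.03 ± 0.02), below 0 on each array by amounts smaller than its standard error of 0.10. No helicase was called (0 of 8 by limma, and 1, DBP3, with an unadjusted p under 0.05).

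Nop7, Erb1 and Ytm1 form the complex required to process the spacers of the 27S precursor. NOP7 (YGR103W), the yeast pescadillo, had 0.08, 0.30, 0.19 and 0.07 (mean 0.16 ± 0.11). ERB1 (YMR049C), its scaffold partner, had 0.17, 0.38, 0.22 and 0.39 (mean 0.29 ± 0.11, limma, Benjamini-Hochberg adjusted p = 0.143). YTM1 (YOR272W), the WD-repeat subunit that Rea1 later pulls off the particle, had -0.21, 0.15, 0.06 and -0.07 (mean -0.02 ± 0.15). NOP7 and ERB1 were thus above 0 on each array while YTM1 had values on both sides of 0. With single replicates left out, the YTM1 mean ran from -0.07 (without replicate 2) to 0.05 (without replicate 1). Within arrays ERB1 exceeded YTM1 by 0.31 ± 0.13 and NOP7 exceeded it by 0.18 ± 0.07, on 4 of 4 arrays each. These were among 9 pairs of partner genes compared after the values were seen, so no test was made.

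Around the internal transcribed spacer 2, the widest split between dyes of any 60S factor was in NOP12 (YOL041C), an RNA-binding protein that helps fold the pre-rRNA. It stood at 0.97, 0.06, 0.59 and -0.05 on replicates 1 to 4, a mean of 0.40 ± 0.48 (limma, Benjamini-Hochberg adjusted p = 0.186). Its high mean was thus carried by the arrays on which Cy3 marked treated RNA. NOP15 (YNL110C), another spacer-binding protein, was at 0.15 ± 0.38. Its mean ran from -0.01 (without replicate 1) to 0.30 (without replicate 2) when single replicates were left out. CIC1 (YHR052W) was at 0.09 ± 0.06 and RLP7 (YNL002C), a relative of ribosomal protein L7 that sits on the spacer, at 0.09 ± 0.13. Of the 7 genes in the Nop7 and spacer group 6 had means above 0, with a median of 0.15.

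All 6 genes of the Brix-domain and 5S group had means above 0, with a median of 0.19. SSF1 (YHR066W), a Brix-domain protein of the nucleolar particle, had 0.51, 0.15, 0.43 and 0.23 (mean 0.33 ± 0.17, limma, Benjamini-Hochberg adjusted p = 0.115). Its close paralogue SSF2 (YDR312W) had 0.16, 0.10, 0.01 and 0.39 (mean 0.16 ± 0.16). Both genes were above 0 on each array, SSF1 exceeded SSF2 on 3 of 4 (mean difference 0.17 ± 0.27), and the likeness of the pair leaves their separate values open to cross-hybridisation, which was not tested. RPF2 (YKR081C), which brings the 5S RNA particle to the precursor, had 0.34, 0.24, 0.05 and 0.24 (mean 0.22 ± 0.12). RRS1 (YOR294W), its partner in that step, had 0.03, 0.25, -0.14 and 0.33 (mean 0.12 ± 0.22). The values of RPF2 and RRS1 overlapped, RPF2 being the higher on 2 of 4 arrays. BRX1 (YOL077C) had -0.06, 0.07, -0.04 and 0.30 (mean 0.07 ± 0.17). Its partner EBP2 (YKL172W), at 0.23 ± 0.15, exceeded it within arrays by 0.17 ± 0.07, on 4 of 4.

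Both rRNA methyltransferases had means above 0. NOP2 (YNL061W), which methylates a cytosine of 25S rRNA, had 0.27, 0.16, 0.19 and 0.32 (mean 0.24 ± 0.08, limma, Benjamini-Hochberg adjusted p = 0.214). SPB1 (YCL054W), which methylates a ribose of 25S rRNA, had 0.18, 0.05, 0.00 and 0.28 (mean 0.13 ± 0.13). NOP2 was the steadier of the pair, and their ranges overlapped.

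The 6 RNA-binding and scaffold proteins had the highest median of the role groups, 0.25, and each mean lay above 0. With treated RNA in Cy3 the group's median reached 0.54 (replicate 1) and 0.31 (replicate 3), while in Cy5 it was -0.03 (replicate 2) and 0.15 (replicate 4). LOC1 (YFR001W), a nucleolar protein also known for ASH1 mRNA localisation, had 0.74, -0.04, 0.29 and 0.19 (mean 0.29 ± 0.33). NOP53 (YPL146C), which recruits the exosome to the spacer, had 0.75, -0.23, 0.54 and 0.09 (mean 0.29 ± 0.44). Both were highest on replicate 1 and below 0 on replicate 2. PUF6 (YDR496C), a Pumilio-family protein that also binds ASH1 mRNA, was at 0.23 ± 0.28, NSA2 (YER126C) at 0.24 ± 0.20 and NOP13 (YNL175C) at 0.26 ± 0.21. NOP13 had its highest value, 0.41, on replicate 4. NOP4 (YPL043W), an RNA-binding protein of early particles, was higher with treated RNA in Cy5, with -0.11, 0.16, -0.07 and 0.14 (mean 0.03 ± 0.14).

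The fit with a dye coefficient tested differences between the dye orientations across all genes. No 60S factor had a dye effect past the threshold (0 of 54, limma, Benjamini-Hochberg, lowest adjusted p = 0.330), where 0.0391% of all genes did. At an unadjusted p under 0.05 there were 4 of 54, REA1 (YLR106C), NOP12, NOP53 and PUF6, a smaller share than the 9.76% of all genes. For these 4 the mean was 0.69, 0.78, 0.65 and 0.45 on the arrays with treated RNA in Cy3, and 0.17, 0.01, -0.07 and 0.00 on the others. The high means of these 4 genes came more from replicates 1 and 3, which is the difference by which they were picked. REA1 was nonetheless above 0 on each array. Replicate 1 was the widest array for all tested genes as well.

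**Figure D3:**
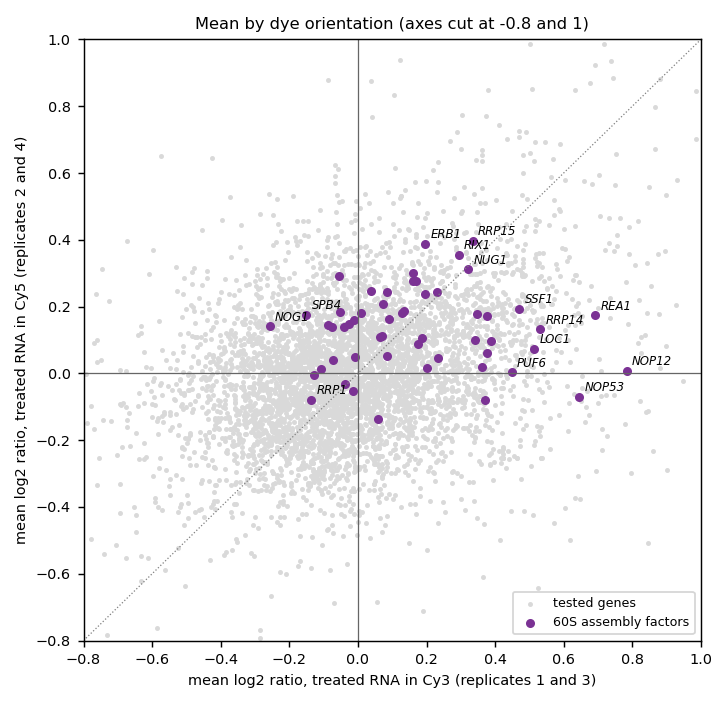
Mean log2 ratio over replicates 2 and 4 (treated RNA in Cy5) against the mean over replicates 1 and 3 (treated RNA in Cy3), for all tested genes (grey) and the 60S assembly factors (purple), with selected factors named. The purple points number 35 in the upper right quadrant, and NOP12, NOP53, PUF6 and REA1 lie far to the right of the dotted line of equal values.

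The 3 genes grouped with the placeholders, RLP24, MRT4 and TIF6, all had means above 0. RLP24 (YLR009W), which holds the site of ribosomal protein L24, had 0.37, 0.15, -0.03 and 0.41 (mean 0.22 ± 0.20). MRT4 (YKL009W), which holds the site of the stalk protein P0, had -0.08, 0.08, 0.09 and 0.28 (mean 0.09 ± 0.14). TIF6 (YPR016C), the factor that keeps immature 60S subunits from joining 40S subunits, had 0.08, 0.05, 0.38 and 0.04 (mean 0.14 ± 0.16), with replicate 3 far above the others. The ribosomal protein genes related to RLP24 and MRT4 were at 0.06 ± 0.06 (RPL24A), 0.11 ± 0.20 (RPL24B) and 0.08 ± 0.22 (RPP0). Those related to RLP7 were at 0.02 ± 0.19 (RPL7A) and 0.13 ± 0.18 (RPL7B). None of these 5 was called (0 by limma, also 0 at an unadjusted p under 0.05, lowest Benjamini-Hochberg adjusted p = 0.530, for RPL7B), and each lay within the range of the assembly factors' means.

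GTPases were the role group with the lowest median, 0.00, and their means ran from -0.12 to 0.32. NUG1 (YER006W), a nucleolar GTPase, had 0.28, 0.24, 0.36 and 0.39 (mean 0.32 ± 0.07, limma, Benjamini-Hochberg adjusted p = 0.108). NOG2 (YNR053C), which occupies the site that Nmd3 later binds, had -0.42, 0.12, 0.27 and 0.16 (mean 0.03 ± 0.31). NUG1 was the steadiest of the 8 highest factors, while NOG2 was below 0 on replicate 1 alone. LSG1 (YGL099W), the cytoplasmic GTPase that helps release Nmd3, had 0.25, 0.01, -0.13 and -0.29 (mean -0.04 ± 0.23). NOG1 (YPL093W), which enters the nucleolar particle and leaves in the cytoplasm, had -0.53, 0.14 and 0.01 on replicates 1 to 3 and no value on replicate 4, and its mean of -0.12 ± 0.36 (n = 3) was the lowest of the tested factors. Replicate 1 set the sign of the NOG1 mean, which was 0.08 without it.

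Rea1, Rix7 and the Rix1 complex release factors from the particle. REA1 (also MDN1), the giant AAA ATPase that strips off Ytm1 and Rsa4, had 0.98, 0.18, 0.40 and 0.17, the highest mean of the 54 factors at 0.43 ± 0.38 (1.35-fold, limma, Benjamini-Hochberg adjusted p = 0.115). It was above 0 on each array, with replicate 1 far above the others. RIX1 (YHR197W), the scaffold of the complex that docks Rea1, had 0.40, 0.46, 0.19 and 0.25 (mean 0.32 ± 0.13, limma, Benjamini-Hochberg adjusted p = 0.113). Of its partners, IPI3 (YNL182C) was at 0.15 ± 0.23, and IPI1 (YHR085W) had -0.33, -0.20, 0.08 and 0.19 (mean -0.07 ± 0.24). With single replicates left out, the IPI1 mean ran from -0.15 (without replicate 4) to 0.02 (without replicate 1). RIX1 exceeded IPI1 on 4 of 4 arrays (mean difference 0.39 ± 0.35) and IPI3 on 3 of 4 (0.18 ± 0.21), differences of about the size of their SD over the arrays. RSA4 (YCR072C), the substrate of Rea1 in the nucleoplasm, was at 0.16 ± 0.17. RIX7 (YLL034C), the AAA ATPase that removes Nsa1, had -0.09, 0.00, -0.12 and 0.02 (mean -0.05 ± 0.07), with values on both sides of 0.

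Both export adaptors had nearly equal means. NMD3 (YHR170W), which links the subunit to the exportin Crm1, had 0.50, 0.15, 0.25 and -0.03 (mean 0.22 ± 0.22). ARX1 (YDR101C), which shields the particle's exit tunnel and contacts the pore, had 0.15, 0.37, 0.18 and 0.19 (mean 0.22 ± 0.10). ARX1 was above 0 on each array and NMD3 on 3 of them.

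Other ribosome assembly genes were summarised as lists. A list of 38 further 60S factors included exportins, cytoplasmic recycling factors and ribosomal protein chaperones. Its 36 tested genes had a median of 0.07, with 27 means above 0 and no calls by limma (0 after adjustment). At an unadjusted p below 0.05, 4 were higher (11.1%) and 0 lower, against 10.2% and 8.63% of all genes. A list of 41 genes of the small-subunit processome, which makes the 40S precursor, had 38 tested genes with a median of 0.14. Of their means 31 lay above 0, again with no calls (0 after adjustment). At an unadjusted p below 0.05, 6 were higher (15.8%) and 0 lower, against the same shares of all genes. The 72 tested genes for large-subunit ribosomal proteins had a median of 0.05 and 48 means above 0. Of these 72, 1 was called, RPL31B, which fell by 0.43 ± 0.14 (limma, Benjamini-Hochberg adjusted p = 0.0429), a call that was lost without replicate 1, 3 or 4 (adjusted p = 0.0638, 0.290 and 0.120). The medians of the 60S factors and of the processome lay above 0 on each array, while those of the further 60S factors and of the RPL genes were below 0 on 1 array each. These differences between lists were not tested.

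**Figure D4:**
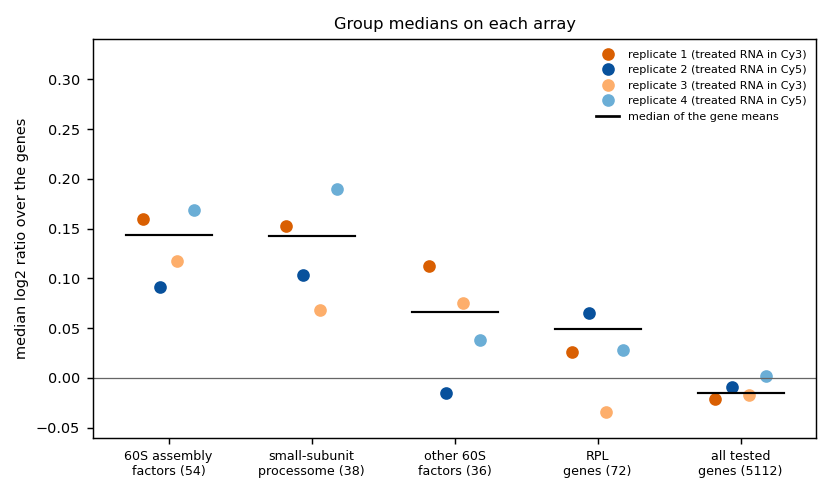
Median log2 ratio over the tested genes of each group on each array (points) and the median of the gene means (black bars), with the number of genes tested in brackets. The 60S assembly factors lie between 0.09 and 0.17 on the 4 arrays and the processome between 0.07 and 0.19.

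Regulators of the ribosome biogenesis regulon were measured as transcripts. SFP1, its activator, was at 0.26 ± 0.44, with 0.88 on replicate 1 and values from -0.11 to 0.22 on the others. SCH9, the kinase that acts on the regulon's repressors, was at 0.07 ± 0.30. The repressor genes were at 0.34 ± 0.27 (TOD6), 0.14 ± 0.17 (DOT6) and -0.44 ± 0.43 (STB3, n = 3). RAP1 was at -0.06 ± 0.17 and TOR1 at -0.23 ± 0.14. None of these 7 was called (0 by limma, Benjamini-Hochberg adjusted p from 0.143 to 0.783). At an unadjusted p under 0.05 there were 3, of which 1 was higher and 2 lower, against 10.2% and 8.63% of all genes. TOD6 passed without replicate 1 (mean 0.46, adjusted p = 0.0309).

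No 2 of the 56 factors were neighbours in the order of protein-coding genes in the R64 gene table. Of 25 tested genes transcribed divergently from a tested 60S factor, 10 had means above 0 and the median was -0.03. For 38 neighbours on the same strand the median was -0.06 and for 28 convergent neighbours it was 0.05. None of the 3 sets held a called gene (0 by limma). The sets held 1, 8 and 5 genes with an unadjusted p under 0.05 in either direction, against 960 of all 5112 genes tested. Among these neighbours, the listed processome genes were RRP3, divergent from SSF1 and at 0.09, and UTP9, on the strand of RIX1 and at 0.19. GRC3, convergent with RIX7 and at 0.15, was on the list of further 60S factors. The lists are not complete, so unlisted neighbours may also act in ribosome assembly, and the neighbours are not a plain background.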

How the data were processed

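The authors deposited 1 value per ORF and array, read here as log2 ratios of the channels from their range and sign. The scanner, the background correction, the normalization, the log base and the direction of the ratios were not stated in any label or header. Replicates 1 to 4 had values for 5176, 5534, 5179 and 4819 ORFs, and 5638 of 6211 ORF names, with all 56 factors, matched a locus tag in the RefSeq R64 gene table, used for names and gene order. No sequence was used, and coordinates served only to order the genes. Testing was limited to genes measured on 3 arrays or more and used limma 3.58.1 in R 4.3.3 (intercept only, eBayes, two-sided, Benjamini-Hochberg over 5112 genes, threshold 0.05), a procedure tested on simulated data, and a second fit added a dye coefficient. No further normalization was applied, and arrays have no depth beyond their number.

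The 56 factors, role groups and lists were chosen with earlier results of these data known. Each factor is named. Array values are given for the 8 highest and 6 lowest factors measured on 4 arrays, the ends of each role group and 20 fixed factors. Alternatives were centred, scaled and quantile-normalized arrays, a dye coefficient, other minimum numbers of arrays, other variance priors, array weights and leaving out each replicate.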

Additional observations from a re-analysis of the deposited data

Results flagged for a closer look

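Of 66 sets of 4 array values checked for a value far from the others, 53 of them 60S factors, 2 were picked out, and chance picks out about 1 in 20. DBP3 had 0.61 on replicate 1 against 0.14 to 0.19 on the others. TIF6 had 0.38 on replicate 3 against 0.04 to 0.08 on the others. The cause of either value was not tested.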

How the results depend on the processing

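The median over the 60S factors stayed between 0.14 and 0.16 under the 13 alternatives run, 44 to 48 factors had means above 0, and 0 factors were called in each (lowest adjusted p 0.0515, RRP15 with array weights). The lowest adjusted p over the factors ranged up to 0.317, without replicate 3. Between 1 and 6 factors had means that changed sign with scaled or quantile-normalized arrays, with array weights or when a replicate was left out, and none did in the other alternatives. These were NOC3, DBP9, SPB4, YTM1, NOP15, BRX1, NOP4, NOG1, NOG2, LSG1 and IPI1, none of them called. The number of genes called over the whole table, 155, moved more. It was 0 with each gene's own variance (690 at an unadjusted p under 0.05, with 9 of the 60S factors higher) and 274 with array weights. Leaving out single replicates gave 27 (without replicate 3) to 179 (without replicate 1) calls, with 67 without replicate 4. The count of genes with a dye effect was 2, also 2 over genes measured on 4 arrays, and 3 with a robust variance prior. Each array is itself a direct comparison of a treated and a vehicle culture, so the test of the mean ratio used that pairing. No further pairing was possible because the arrays form 1 group. A comparison of promoter motifs that had been planned was not run, as no sequence was used here. Without signal and background values, dim spots could not be told from others.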
